A study of Schizosaccharomyces pombe with 3 samples.

Results

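The Pol II library and the bead control are 2 of the 3 libraries of a chromatin immunoprecipitation sequencing (ChIP-seq) series in the fission yeast Schizosaccharomyces pombe, and they were chosen by their antibody labels. Pol II chromatin was precipitated with the antibody 4H8 (Abcam ab5408) against the C-terminal domain (CTD) of RNA polymerase II, on Protein G beads. The control was chromatin put on beads with no antibody. Both came from strain 972 h- without a TAP tag, grown in YEA with 2% glucose and collected in log phase, with no treatment. No gene was deleted or induced, so the pair describes where the polymerase sat in growing, unstressed cells. Each group is 1 library. There is thus no replicate check, no difference between the groups is tested, and a fold compares these libraries. The 95% intervals in parentheses allow for counting error alone and take each read as independent. Amplified reads here carry no molecular identifier, so the intervals are too narrow where reads are copies of the same molecule. The TAP-Med7 library of the series was not used.

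RNA polymerase II transcribes the protein-coding genes and most spliceosomal small nuclear RNAs, and its largest subunit ends in the CTD, a tail of repeated heptapeptides whose phosphorylation changes as the enzyme moves along a gene. ChIP against the CTD reads how much of this tail the antibody finds on the DNA, on paused or moving enzyme, and not how much RNA is made. Whether the antibody binds the CTD alike along a gene, as its phosphorylation changes, was not tested. In fission yeast the stress MAP kinase Sty1 and the bZIP factor Atf1 drive a shared set of stress genes, the heat shock factor Hsf1 drives chaperone genes, and many of both also serve unstressed growth.

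The files held 1829877 reads of the Pol II library and 678947 of the control, of which 1687058 and 630825 lay on the nuclear chromosomes outside the ribosomal DNA ends. The median gene body held 195 Pol II reads and 97 control reads. A fold is the share of these nuclear reads in a window, Pol II over control. A gene body runs from annotated transcript start to end, and 4968 of 5113 protein-coding genes were measured, meaning at least 20 reads in both libraries together and at least 90% of positions uniquely mappable. High means a fold of at least 2 whose interval lies wholly above 1, and low a fold of at most 0.5 whose interval lies wholly below 1.

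Few genes were high in Pol II. By this rule 339 genes were high, which is 6.82% of those measured, and 571 were low, which is 11.5%. The 10 genes with the highest fold held 3.58% of the Pol II reads and 0.29% of the control reads. The 339 highest genes held 23.2% of the Pol II reads against 5.86% of the control reads, on 4.76% of the genome's length. Ranking by this same fold fixes that their Pol II share is the larger one, and most Pol II reads lay elsewhere. The median gene had 61.2 reads per kb, scaled to library size (RPKM), in the Pol II library and 86.1 RPKM in the control, a median log2 fold of -0.45 with quartiles of -0.78 and -0.04. A fold of 1 therefore means the genome's average share of reads, and lies above most genes.

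The scaling decided what counted as low. When each library was divided by the read count of its median 1 kb bin (99 reads in the Pol II library, 52 in the control, over 11880 bins) instead of by its total, every log2 fold moved up by 0.49. The high genes then numbered 561 (11.3%) and the low genes 72 (1.45%). All 339 high genes stayed high and 222 joined them, while 72 of the 571 low genes stayed low. The genes that joined had folds of 1.43 to 2.17 by total scaling. By the fold before rescaling, the first 5 of them were SPAC29A4.22, rpl4302, adg2, lcb4 and wis1. The uncharacterised gene SPAC29A4.22 lies wholly inside rga3, had only 5 control reads and stood at 2.17-fold (0.830 to 7.18). The other 4 lay between 1.99-fold and 2.00-fold: rpl4302 encodes a large ribosomal subunit protein and lies wholly inside ucp8, lcb4 encodes a sphingoid base kinase, and wis1 encodes the MAP kinase kinase above Sty1. Since every fold moves alike, no gene can leave the high class by this change.

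**Figure D1:**
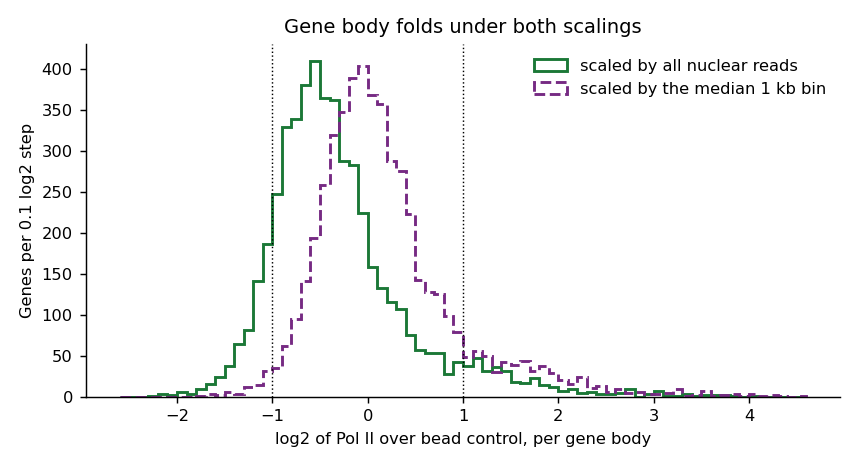
Number of genes per 0.1 step of the log2 fold of Pol II over bead control (x axis), for the 4968 measured gene bodies, scaled by all nuclear reads (solid) or by the median 1 kb bin (dashed). The dotted lines mark 0.5-fold and 2-fold; the whole distribution moves by 0.49, which takes most genes off the low side.

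RNA genes made by other polymerases checked the label. The tRNA genes, which RNA polymerase III transcribes, held 376 Pol II reads and 464 control reads over the 28 of 171 that are uniquely mappable with 50 bp on each side, a fold of 0.303 (0.264 to 0.348). The 6 spliceosomal and related small nuclear RNA genes together reached 4.16-fold (3.12 to 5.65). Within them the Pol II genes snu1 (U1), snu5 (U5), snu2 (U2) and snu4 (U4) had folds of 7.67, 6.14, 4.88 and 3.74. The sixth, snR48, was at 1.74-fold (0.709 to 5.15), an interval that covers 1. The gene snu6 encodes U6, the spliceosomal RNA that RNA polymerase III makes, and stood at 0.561-fold (0.211 to 1.58) from 12 Pol II reads and 8 control reads. The library labelled Pol II was thus high on the U1, U2, U4 and U5 genes and not on the U6 or tRNA genes.

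The control was not flat across the same genes. The 73 genes at 4-fold or more had a median of 676 RPKM in the Pol II library and 108 RPKM in the control. The 268 genes between 2-fold and 4-fold had medians of 230 RPKM in the Pol II library and 91.0 RPKM in the control, and the 3227 genes between 0.5-fold and 1-fold had 58.2 RPKM and 85.1 RPKM in the same order. The 576 genes under 0.5-fold had 39.3 RPKM in the Pol II library and 90.8 RPKM in the control, so the control was lowest in the middle of the range. The part of the control level in the folds was not tested.

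Genes of 10 stress functions covered 138 distinct genes, 11 of them in more than 1 list, and all 138 were measured. The lists and their members were chosen with earlier results of these data known. Their shares and their order are thus descriptions only. Of these 35 were high (25.4%, against 6.82% of all measured genes) and 11 were low (7.97%, against 11.5%). Their median log2 fold was 0.07, against -0.45 in all measured genes. With median-bin scaling 56 were high and 0 were low, so the low calls below rest on total scaling. The functions differed widely in this one growth condition: chaperone genes lay highest and DNA damage genes lowest.

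**Figure D2:**
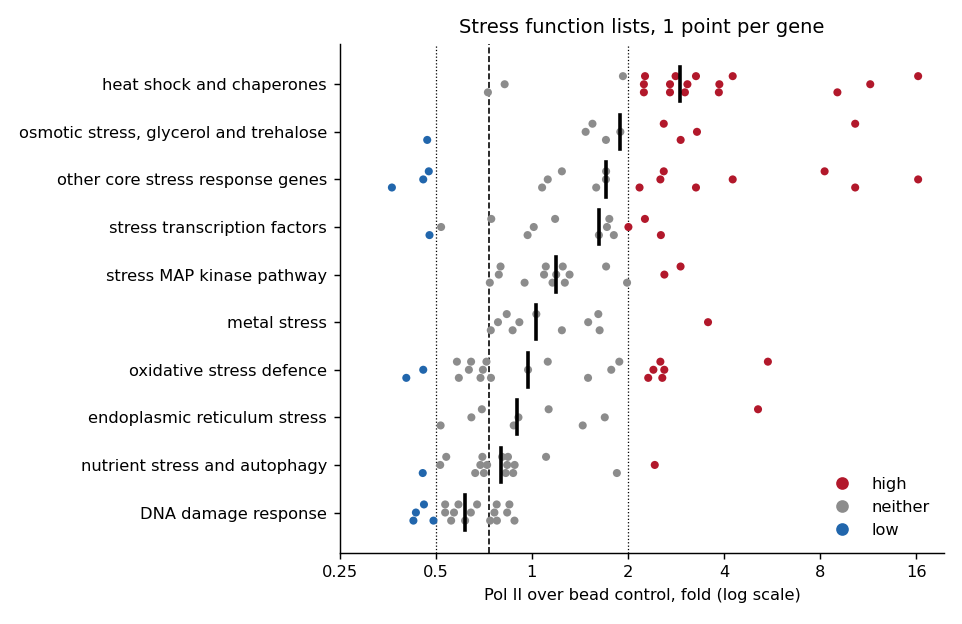
Fold of Pol II over bead control (log axis) for each gene of the 10 stress lists, coloured as high, neither or low; black bars are list medians, the dashed line is the median of all measured genes (0.733-fold) and dotted lines are 0.5-fold and 2-fold. Of the 18 heat shock and chaperone genes 15 are high, while none of the 19 DNA damage genes is, against 6.82% of all measured genes. The lists were chosen with earlier results of these data known.

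Heat shock and chaperone genes carried much Pol II without any heat shock. Of 18 genes 15 were high (83.3%, against 6.82% of all measured genes) and none was low, against 11.5%. The median log2 fold was 1.54. The highest gene of the genome in fold was hsp9, which encodes a small plasma membrane heat shock protein, with 1713 RPKM in the Pol II library against 106 RPKM in the control, a fold of 16.2 (12.2 to 22.1). The Hsp70 gene ssa2 had 1192 RPKM against 104 RPKM in the control (11.5-fold, 9.75 to 13.6), and its paralog ssa1 had 348 RPKM against 90.4 RPKM (3.85-fold, 3.23 to 4.63). The intervals of the 2 Hsp70 genes do not overlap. The gene of the Hsp90 chaperone had 962 RPKM in the Pol II library and 106 RPKM in the control, a fold of 9.06, and the disaggregase gene hsp104 had 339 RPKM and 79.7 RPKM, a fold of 4.26. High folds extended to the ribosome-associated Hsp70 gene sks2 (3.87), the small heat shock protein gene hsp16 (3.27), the J-protein genes mas5 (3.07) and psi1 (3.02) and the Hsp110 gene pss1 (2.82). They also covered the mitochondrial chaperonin genes mcp60 (2.71) and hsp10 (2.24), the mitochondrial Hsp70 gene ssc1 (2.26), and the Hsp90 co-chaperone genes wos2 (2.71) and aha1 (2.24). The transcript of hsp10 lies over that of nse1 for 842 bp, so the 2 cannot be told apart there. The 3 genes outside the high class were the co-chaperone gene sti1 at 1.93-fold, the mitochondrial J-protein gene mdj1 at 0.822-fold and hsp20 at 0.729-fold, the last about the median of all genes.

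The glycerol and trehalose genes came next, with a median log2 fold of 0.91. Of 9 genes 4 were high (44.4%, against 6.82% of all measured genes) and 1 was low (11.1%, against 11.5%). The gene gpd1, which encodes the glycerol-3-phosphate dehydrogenase that makes glycerol under osmotic stress, had 1460 RPKM in the Pol II library and 142 RPKM in the control (10.3-fold, 8.79 to 12.1). Its paralog gpd2 had 123 RPKM and 79.4 RPKM, a fold of 1.55 (1.22 to 1.99). The dihydroxyacetone kinase genes parted in the same way, with dak1 at 3.29-fold (2.74 to 3.98) and dak2 at 0.470-fold (0.357 to 0.620). High too were gut2, the mitochondrial glycerol-3-phosphate dehydrogenase gene (2.92), and tps1, the trehalose-6-phosphate synthase gene (2.59). Between the thresholds lay the glycerol dehydrogenase gene gld1 (1.89), the neutral trehalase gene ntp1 (1.71) and tpp1, the trehalose-phosphate phosphatase gene (1.47).

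Of 17 other genes of the core environmental stress response, 8 were high (47.1%, against 6.82% of all measured genes) and 3 were low (17.6%, against 11.5%). Their median log2 fold was 0.77. Another stress list holds 11 of them, hsp9 and gpd1 included. The gene rds1 had 856 RPKM in the Pol II library and 104 RPKM in the control, a fold of 8.26 (6.91 to 9.95), but it overlaps the uncharacterised gene SPAC343.20 for 1712 bp, which stood at 8.29-fold, and the reads of the 2 cannot be told apart. The stress gene ish1 was at 2.17-fold and overlaps grp2 for 633 bp. At the other end were tms1 at 0.365-fold (0.263 to 0.504), cta3, a calcium ATPase gene, at 0.476-fold (0.400 to 0.566), and the sulfiredoxin gene srx1 at 0.457-fold (0.303 to 0.693). The core list thus spanned the widest range of the 10, with its ends at hsp9 and tms1.

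The transcription factor genes had 3 of 13 high and 1 low, with a median log2 fold of 0.70. These shares were 23.1% and 7.69%, against 6.82% and 11.5% of all measured genes. The high ones were prr1, a response regulator with a heat shock factor-type domain, at 2.54-fold (2.17 to 2.98), the glucose repressor gene scr1 at 2.26-fold (1.94 to 2.64), and the zinc finger gene rsv2 at 2.01-fold (1.65 to 2.46). The partners atf1 and pcr1 were close to each other at 1.75-fold (1.51 to 2.03) and 1.81-fold (1.40 to 2.37), and pap1, the AP-1 factor of the oxidative response, was at 1.72-fold. The gene of Hsf1 itself had 102 RPKM in the Pol II library and 100 RPKM in the control, a fold of 1.01 (0.852 to 1.21). The related bZIP genes atf21 and atf31 were at 0.520-fold and 0.478-fold, and atf31 lies over rdh54 for 2432 bp.

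The 15 genes of the Sty1 cascade had a median log2 fold of 0.25. None was low, against 11.5% of all measured genes, and 2 were high (13.3%, against 6.82%). The 2 were pyp1, a tyrosine phosphatase that switches Sty1 off, at 246 RPKM against 84.0 RPKM in the control (2.92-fold, 2.37 to 3.64), and srk1, a kinase that Sty1 activates, at 260 RPKM against 100 RPKM (2.60-fold, 2.26 to 3.01). The MAP kinase kinase gene wis1 stood at 1.99-fold (1.69 to 2.35), the second phosphatase gene pyp2 at 1.71-fold, and sty1 itself at 1.31-fold (1.04 to 1.67). The kinase genes at the top, wis4 and win1, were at 1.25-fold and 1.09-fold. The sensor histidine kinase genes mak3, mak2 and mak1 were at 0.949-fold, 0.798-fold and 0.788-fold, the phosphatase genes ptc3 and ptc1 were at 1.27-fold and 1.16-fold, and cmk2, the gene of another kinase activated by the MAP kinase, was the lowest member at 0.739-fold.

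Antioxidant genes split. Of 21 genes 6 were high (28.6%, against 6.82% of all measured genes) and 2 low (9.52%, against 11.5%). The median log2 fold was -0.04. The peroxiredoxin gene pmp20 led with 615 RPKM in the Pol II library against 112 RPKM in the control (5.49-fold, 4.17 to 7.35). The glutathione peroxidase gene gpx1 (2.60), the thioredoxin gene trx1 (2.56), the catalase gene ctt1 (2.53), the copper-zinc superoxide dismutase gene sod1 (2.40) and the glutaredoxin gene grx1 (2.31) followed. In 3 families the gene of the mitochondrial member lay lower: trx2 was at 0.635-fold (0.472 to 0.860) against 2.56-fold (1.70 to 3.99) for trx1, sod2 at 0.591-fold against 2.40-fold for sod1, and grx2 at 0.645-fold against 2.31-fold for grx1. The low members were gst1, a glutathione transferase gene, with 33.9 RPKM in the Pol II library and 83.7 RPKM in the control (0.404-fold, 0.269 to 0.609), and srx1.

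The metal, endoplasmic reticulum and nutrient lists had 1 high gene each, or 9.09%, 11.1% and 5.88% of their members, near the 6.82% of all measured genes. Of 11 metal genes 1 was high, hmt2, the sulfide:quinone oxidoreductase gene, at 3.56-fold (2.91 to 4.39), while the copper transporter genes ctr5 and ctr4 were at 1.63-fold and 1.501-fold and the phytochelatin synthase gene pcs2, the lowest member, at 0.744-fold. Of 9 endoplasmic reticulum genes 1 was high, bip1, the Hsp70 of that compartment, with 510 RPKM in the Pol II library and 99.9 RPKM in the control (5.11-fold, 4.38 to 5.99). The stress sensor gene ire1 was at 0.647-fold and the oxidase gene ero12, the lowest member, at 0.518-fold. Of 17 nutrient and autophagy genes 1 was high, the GATA factor gene gaf1 at 2.43-fold (2.12 to 2.79), and 1 was low, atg7, which encodes the activating enzyme of autophagy, at 0.455-fold (0.357 to 0.582), although atg7 overlaps mde4 for 1745 bp. The median log2 folds of the 3 lists were 0.04, -0.15 and -0.32, all above the -0.45 of all genes. With median-bin scaling the oxidative, endoplasmic reticulum and nutrient medians turned positive, at 0.45, 0.34 and 0.17, against 0.042 for all genes.

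DNA damage genes lay lowest. Of 19 genes none was high, against 6.82% of all measured genes, and 4 were low (21.1%, against 11.5%). The median log2 fold was -0.70, against -0.45 in all genes. The low ones were the checkpoint kinase gene chk1 at 0.426-fold (0.363 to 0.499), the clamp loader gene rad17 at 0.433-fold (0.348 to 0.540), rhp16 of nucleotide excision repair at 0.459-fold (0.387 to 0.546) and the recombination gene rad54 at 0.492-fold (0.401 to 0.604). Of these chk1 lies over meu27 for 2693 bp and rhp16 over rhp7 for 1031 bp. The highest was mre11, the nuclease gene, at 0.882-fold (0.743 to 1.05). The 19 genes spanned 0.426-fold to 0.882-fold, a narrower range than any other stress list.

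Promoters of these genes hold short DNA elements that can be read from the genome. The 250 bases before the transcript start were searched on both strands for TGACGT, the core that Atf1 binds, GAANNTTC, a pair of heat shock factor units, CCCCT, the stress element core known from budding yeast, and CAGTCACA, the HomolD box of ribosomal protein genes. Of 4294 promoters of measured genes with both untranslated regions annotated, 226 held TGACGT (5.26%), 410 held GAANNTTC (9.55%), 360 held CCCCT (8.38%) and 118 held CAGTCACA (2.75%). The sequences below come from the RefSeq assembly ASM294v3, 5′ to 3′ on the gene's strand with element matches in capitals. They are the highest 2 stress genes and the lowest called one whose window no other coding transcript enters. Added are the highest such stress gene with GAANNTTC, hsp90, and the highest such ribosomal protein gene with CAGTCACA, rpl39.
hsp9, chrI:5320677-5320926, minus strand: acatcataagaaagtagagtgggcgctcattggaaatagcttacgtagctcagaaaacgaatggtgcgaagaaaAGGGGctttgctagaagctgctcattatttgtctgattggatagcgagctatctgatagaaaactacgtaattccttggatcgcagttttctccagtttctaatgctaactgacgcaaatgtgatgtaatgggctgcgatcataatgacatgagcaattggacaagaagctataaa
gpd1, chrII:4035316-4035565, plus strand: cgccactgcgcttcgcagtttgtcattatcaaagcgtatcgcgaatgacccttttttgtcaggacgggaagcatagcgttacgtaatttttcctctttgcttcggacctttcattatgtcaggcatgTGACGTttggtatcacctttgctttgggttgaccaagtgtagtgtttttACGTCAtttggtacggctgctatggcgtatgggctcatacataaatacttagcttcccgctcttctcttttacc
hsp90, chrI:3891140-3891389, minus strand: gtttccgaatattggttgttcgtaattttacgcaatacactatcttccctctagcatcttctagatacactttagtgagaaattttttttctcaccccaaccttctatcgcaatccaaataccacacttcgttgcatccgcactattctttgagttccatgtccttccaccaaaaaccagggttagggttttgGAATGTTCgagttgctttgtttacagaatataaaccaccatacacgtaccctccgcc
rpl39, chrIII:1640766-1641015, plus strand: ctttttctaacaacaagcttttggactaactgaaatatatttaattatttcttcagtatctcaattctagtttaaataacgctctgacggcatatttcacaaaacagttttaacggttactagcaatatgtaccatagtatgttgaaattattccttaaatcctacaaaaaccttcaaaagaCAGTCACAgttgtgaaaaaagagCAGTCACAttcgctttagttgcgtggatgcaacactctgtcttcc
gst1, chrIII:1720071-1720320, minus strand: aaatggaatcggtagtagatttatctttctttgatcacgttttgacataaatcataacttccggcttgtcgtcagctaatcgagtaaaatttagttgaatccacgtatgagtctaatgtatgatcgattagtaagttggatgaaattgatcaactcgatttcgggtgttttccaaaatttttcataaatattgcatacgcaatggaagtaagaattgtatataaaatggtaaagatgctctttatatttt

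High genes were more frequent among carriers for 3 of the 4 elements. In gpd1 TGACGT stands at 123 to 118 and, on the other strand, at 74 to 69 bases before the start, and in hsp9 CCCCT stands on the other strand at 176 to 172. In hsp90 GAANNTTC stands at 57 to 50, and in rpl39, a gene of the large ribosomal subunit at 5.09-fold, CAGTCACA stands at 68 to 61 and 45 to 38. The window of gst1 holds none of the 4. Of the 226 genes with TGACGT 20.8% were high, against 6.49% of those without it. Of the genes with CCCCT 16.4% were high, against 6.41% without. With CAGTCACA 58.5% were high, against 5.80% without, but 77 of the 118 are ribosomal protein genes. Of the 77 ribosomal protein genes with it 70.1% were high and the median log2 fold was 1.12, against 61.7% and 1.13 in the 47 without it. The 41 other genes with CAGTCACA had a median log2 fold of 0.35 and 15 of them were high, the chaperone genes sks2 and mcp60 included. GAANNTTC was the exception over all genes, with 7.32% high among the 410 carriers and 7.23% among the rest. It stood before 12 of the 18 chaperone genes, against 9.55% of all promoters. Of those 12 chaperone genes 10 were high, and so were 5 of the 6 without it (hsp9, hsp104, sks2, mcp60 and wos2). A match is only a run of letters, and a window without one says nothing about the factor.

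Transcript length showed little relation to the fold. Spearman's rho between length and log2 fold was 0.055 across 4968 genes, given as a description, since genes share both libraries. The median log2 fold was -0.35 in 795 genes under 1000 bp, -0.52 in 2091 genes from 1000 to under 2000 bp, -0.43 in 1260 genes from there to under 3000 bp, -0.38 in 505 genes from there to under 4000 bp and -0.30 in 317 genes of 4000 bp and over. The shortest class held 115 ribosomal protein genes, of which 79 were high, and without them the class median was -0.49 in 680 genes and the share of high genes 7.06% in place of 15.97%. Median Pol II levels from the second class up were 57.9, 62.1, 66.0 and 71.1 RPKM, and median control levels were 84.9, 87.7, 87.4 and 88.9 RPKM, so the Pol II side changed more with length than the control did.

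**Figure D3:**
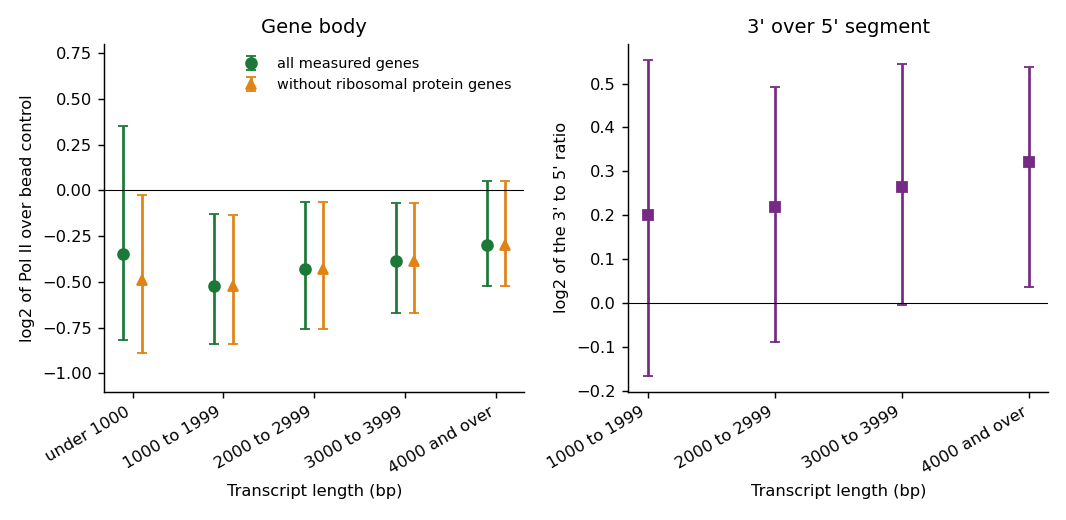
Left, log2 fold of Pol II over bead control by class of transcript length (bp), for all measured genes (circles) and without ribosomal protein genes (triangles); right, log2 ratio of the fold in the 3′ segment over that in the 5′ segment for genes of 1000 bp and over. Points are medians and bars run between the quartiles; the left medians lie between -0.52 and -0.30, the right ones are all above 0.

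Low genes made up 15.8% of the shortest class and 14.1%, 9.52%, 4.16% and 3.15% of the classes above it. The shares of high genes from the second class up were 4.35%, 5.79%, 5.74% and 5.99%. The median control count per gene went with length, at 37 reads in the shortest class and 277 in the longest, so the precision of a fold differs between classes, and its part in the low shares was not tested.

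The longest genes were ordinary in Pol II. The 10 longest transcripts ran from 8969 bp (tel1, the ATM-like checkpoint kinase gene) to 15232 bp (sib1, the ferrichrome synthetase gene), and none was high or low. The highest of them was ptr1, a ubiquitin ligase gene, with 111 RPKM in the Pol II library and 97.8 RPKM in the control (1.14-fold, 1.04 to 1.25). The ribosome assembly gene mdn1, at 14352 bp the second longest, was at 1.05-fold (0.971 to 1.14). The lipid transfer gene vps1301 was the lowest at 0.558-fold (0.5003 to 0.622), against 0.928-fold (0.841 to 1.02) for its paralog vps1302. The remaining 6 were tra2 (0.914), sib1 (0.798), rad3 (0.776), dhc1 (0.747), tra1 (0.670) and tel1 (0.641). Of these tra1 and tra2 encode large related subunits of histone acetyltransferase complexes, dhc1 the dynein heavy chain and rad3 the ATR-like kinase, whose transcript lies over that of swi1 for 6260 bp. The intervals of tra2 (0.829 to 1.01) and tra1 (0.609 to 0.738) do not overlap.

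Among transcripts of 4000 bp and over the highest was pma1, the plasma membrane proton pump gene, with 1552 RPKM in the Pol II library and 150 RPKM in the control (10.3-fold, 9.39 to 11.4). After it came oca2, a protein kinase gene, at 3.90-fold, bgs4, a cell wall glucan synthase gene of 7794 bp, at 3.86-fold, sir1, the sulfite reductase gene, at 3.73-fold, and ura1, the first enzyme gene of pyrimidine synthesis, at 3.38-fold. The gap between pma1 and the next gene was thus from 10.3-fold to 3.90-fold. In the class from 3000 to under 4000 bp the highest were the eisosome gene fhn1 (8.19), the phospholipase gene plb2 (7.98), the polyamine transporter gene SPBC409.08 (6.88), the transcription factor gene esc1 (6.06) and the vacuolar carboxypeptidase gene cpy1 (4.54). In the class from 2000 to under 3000 bp they were plb1 (14.3), the transcription factor gene SPAC2H10.01 (12.9), ssa2 (11.5), the fatty acid desaturase gene ole1 (10.2) and hsp90 (9.06).

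The 5 highest genes from 1000 to under 2000 bp were pgk1 (13.6), eno101 (13.3), adh1 (12.2), fba1 (11.5) and gpd1 (10.3), all enzymes of sugar breakdown or its branch to glycerol. Under 1000 bp they were hsp9 (16.2), the phosphoglycerate mutase gene gpm1 (10.8), SPAPB18E9.05C (9.39), SPCC417.16 (8.398) and SPAC27E2.11C (8.08). The shortest of these, SPAPB18E9.05C, spans 273 bp with 402 Pol II reads and 16 control reads, and its interval (5.71 to 16.6) covers the other 4 values. The top folds of the 4 shorter classes lay between 8.19 and 16.2.

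Reads that start at the same base on the same strand limit the top folds. Such repeats made up 17.0% of the Pol II reads and 12.8% of the control reads. Counted once, the fold was 8.99 for hsp9, 7.599 for ssa2, 6.20 for gpd1, 6.08 for pma1, 6.25 for plb1, 7.46 for SPAC2H10.01, 6.64 for pgk1, 6.26 for eno101, 6.05 for adh1, 5.98 for fba1, 6.21 for gpm1, 6.49 for ole1 and 5.06 for SPAC27E2.11C, each more than 1.5 times below the value with repeats. Counting once also caps what a short gene can reach, and how many of the repeats are PCR copies was not tested. All 13 stayed at 5-fold or more either way.

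The signal of the CTD antibody, called Pol II here, was higher toward the 3′ end in most genes. Each transcript of 1000 bp or more was divided at its midpoint, and the fold of the 3′ segment was set over that of the 5′ segment, a ratio that no scaling between the libraries can change. A gene was called 3′-heavy at a ratio of at least 1.5 with its interval wholly above 1, and 5′-heavy at 0.667 or under with its interval wholly below 1. Of 4163 genes tested 602 were 3′-heavy (14.5%) and 105 were 5′-heavy (2.52%). Over the coding span alone 346 of 4112 genes were 3′-heavy and 107 were 5′-heavy, so the first count depends on the untranslated ends. The median ratio was 1.17, and 67.7% of genes lay above 1.

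The lean to the 3′ side was seen at every length and every level of Pol II. The median ratio was 1.15, 1.16, 1.20 and 1.25 in the 4 length classes from 1000 bp up, and 3′-heavy genes were 11.0%, 16.02%, 21.1% and 20.9% of these classes. Longer genes have more reads and so narrower intervals, which bears on the shares but not on the medians. By gene body fold the median ratio was 1.14 at 4-fold or more (52 genes), 1.12 at 2-fold to 4-fold (159), 1.24 at 1-fold to 2-fold (669), 1.17 at 0.5-fold to 1-fold (2839) and 1.09 under 0.5-fold (444). The lean was thus strongest in genes around the genome's average and weakest in those with the least Pol II.

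Each transcript was also divided into 10 equal bins, 5′ to 3′. Summed over 4173 genes of 1000 bp or more, the fold was 0.862 in the first bin and 1.23 in the last, so the last bin was 1.43 times the first. It was lowest 250 to 201 bp before the start, at 0.798, and reached 1.02 in the last 50 bp before it. After the transcript end it was 1.22 in the first 50 bp and about 0.90 from 300 bp on. The shape depended on how much Pol II a gene had. The 53 genes at 4-fold or more had 5.37 in the first bin, a maximum of 8.65 in the eighth and 7.38 in the last. Beyond the end they had 5.60, 4.66 and 3.32 in successive 50 bp steps and 0.893 at 500 bp. The 445 genes under 0.5-fold had 0.456 in the first bin, 0.391 in the sixth and 0.587 in the last, with 0.817 at 51 to 100 bp beyond the end. The classes were cut on the body fold, which sets how body and flanks compare.

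**Figure D4:**
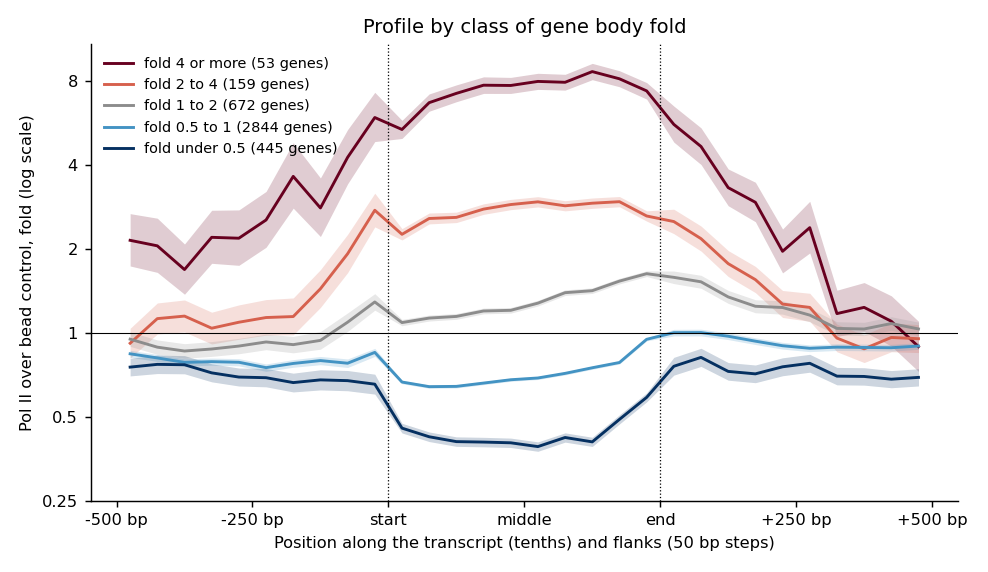
Fold of Pol II over bead control (log axis) in 50 bp steps before the transcript start, in 10 equal bins of the transcript and in 50 bp steps after its end, for 5 classes of gene body fold; bands are 95% intervals for counting error. The classes were cut on the fold of the body, so only the shape is to be read: the highest class peaks at 8.65 in the eighth bin, and the lowest has its highest body value, 0.587, in the last.

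Neighbouring genes sit close in this genome, and the share of 3′-heavy genes differed with the Pol II class of the downstream neighbour. Among the genes tested, 206 had a high gene within 500 bp downstream or overlapping their end. Of these 66 (32.0%) were 3′-heavy, against 14.5% of all genes tested. Of 304 with a low neighbour there, 28 (9.21%) were, and of 2975 with a neighbour that was neither, 426 (14.3%) were. With a convergent neighbour that overlaps the end the median ratio was 1.21 (1487 genes), with one 500 bp away or more 1.03 (96 genes). With tandem neighbours the same classes had 1.14 (129 genes) and 1.13 (452 genes), close to each other. The part of neighbours in the lean was not tested. Of 293 genes with no gene within 500 bp, long non-coding RNAs aside, 29 were 3′-heavy, against 14.5% of all genes tested. Their median log2 ratio was 0.16, against 0.23 in all genes. With long non-coding RNAs counted as neighbours only 13 genes remained, 1 of them 3′-heavy, at a median log2 ratio of 0.058. For 40 genes at 2-fold or more with that much room, long non-coding RNAs aside, the fold was 3.25 in the first bin, 6.13 in the eighth and 5.04 in the last. Past the end it was 5.09, 4.29, 3.09, 2.52, 1.80, 1.72 and 1.14 in steps of 50 bp.

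The largest ratio without an overlap was that of the kinetochore gene mis13 at 5.57 (2.77 to 11.05), from 32 Pol II and 25 control reads in the 5′ segment and 228 and 32 in the 3′ segment. Its end lies 3 bp from the end of SPBC409.08, itself at 6.88-fold. The next were SPAC13C5.05C at 4.27 (2.65 to 6.84) and the disulfide isomerase gene pdi4 at 3.85 (2.51 to 5.90), whose ends face the small nucleolar RNA genes snR40 at 65 bp and snR30 at 16 bp. In pdi4 the first 8 bins had 8 to 17 Pol II reads each and the last had 179, while the control had 11 to 24 reads in every bin. These 3 genes thus had their Pol II next to a facing gene. Over the coding span alone the ratios were 1.73 in mis13, 2.58 in SPAC13C5.05C and 0.969 in pdi4, so that of pdi4 rests on its untranslated end.

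In the DNA damage gene mre11 the ratio was 3.17 (2.19 to 4.58). Long non-coding RNAs aside, the next gene downstream of mre11 lies 2240 bp away. The bins of mre11 held 25, 28, 29, 16, 32, 43, 29, 142, 74 and 28 Pol II reads against 21, 30, 23, 13, 20, 17, 5, 20, 23 and 17 control reads. The Pol II reads thus stood in the eighth and the ninth bin and not at the end, and over its coding span the ratio was 1.70. In dip1, an actin regulator gene, the ratio was 3.36 (1.85 to 6.10) with the facing gene coa6 313 bp away, and its Pol II reads per bin ran from 6 to 35 with both maxima in the last 2 bins. The remaining ones of the first 10 were SPCC965.09 (3.31), the tRNA methyltransferase gene trm9 (3.23), the deacetylase subunit gene sds3 (3.12), the RNA polymerase I subunit gene ker1 (3.05) and the anion transporter gene oac1 (3.01). Each had 34 to 48 control reads in the 5′ segment and 19 to 28 in the 3′ segment, so the control enters these ratios too. Their Pol II reads went, in the same order, from 34 to 67, 39 to 57, 40 to 58, 44 to 75 and 69 to 104. Over the coding span the ratio of SPCC965.09 was 0.863.

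**Figure D5:**
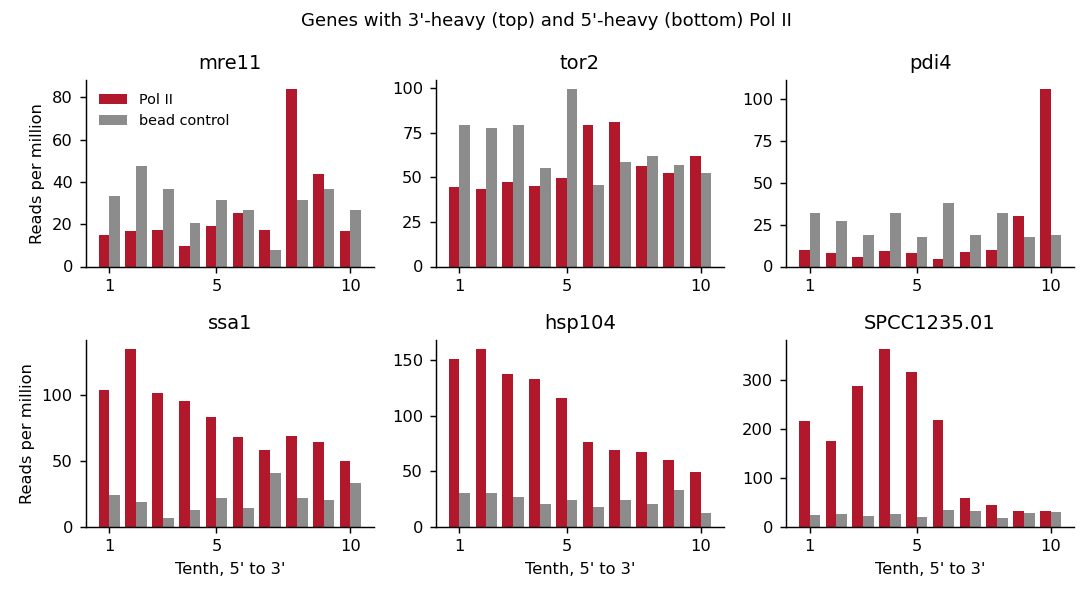
Reads, scaled to library size, in each of 10 equal bins of the transcript, 5′ to 3′, in the Pol II library (red, left bars) and the bead control (grey, right bars) for 3 genes called 3′-heavy (mre11, tor2 and pdi4) and 3 called 5′-heavy (ssa1, hsp104 and SPCC1235.01). In pdi4 the last bin holds 179 Pol II reads against 12 control reads, and in SPCC1235.01 the Pol II reads drop after the sixth bin while the control stays level.

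The 5′-heavy genes were few but included some with much Pol II. SPCC1235.01, an uncharacterised gene, had an 11.4-fold 5′ segment and a 2.73-fold 3′ segment, a ratio of 0.240 (0.172 to 0.334). Its first 6 bins held 294 to 612 Pol II reads and its last 4 held 54 to 98, against 11 to 21 control reads in every bin. The Hsp70 gene ssa1 was 6.20-fold in the 5′ segment and 2.35-fold in the 3′ segment, a ratio of 0.379 (0.259 to 0.552). Its Pol II reads per bin were 175, 228, 172, 161, 141, 115, 99, 117, 109 and 84, so the Pol II decline ran along the gene and not at 1 step. From the 5′ to the 3′ segment of ssa1 the Pol II reads fell from 879 to 522 and the control rose from 53 to 83. Both libraries thus enter its ratio. The lowest ratio was that of the meiotic gene mug114 at 0.192 (0.0944 to 0.383), with 132 Pol II and 18 control reads in the 5′ segment, but 1.59 over its coding span. Below these came SPAC26F1.11 (0.352), the exosome gene rrp4 (0.364), the helicase gene dbp8 (0.387), the meiotic gene mes1 (0.425), the peptidyl-tRNA hydrolase gene pth1 (0.443), dbl7 (0.454) and SPCC188.14 (0.465). These 7 had gene body folds of 0.384 to 0.866 and rest on 15 to 86 Pol II reads per segment, with upper bounds of 0.703 to 0.980. From the 5′ to the 3′ segment, Pol II reads fell from 73 to 15 in SPAC26F1.11 and from 83 to 34 in dbl7. In the others the control rose, and in some the Pol II reads hardly changed. In mes1 Pol II had 30 and 30 reads and the control 17 and 40. In dbp8 these were 63 and 58 against 29 and 69, and in rrp4 44 and 36 against 24 and 54.

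Stress genes with much Pol II leaned less to the 3′ side. Of 123 stress genes tested 12 were 3′-heavy and 10 were 5′-heavy, 9.76% and 8.13%, against 14.5% and 2.52% of all genes. Of the 27 that were high in the body none was 3′-heavy and 6 were 5′-heavy, with a median ratio of 0.960, against 27 and 7 of the 184 other high genes and a median of 1.14. Among chaperones 4 of 15 tested were 5′-heavy: ssa1, psi1 at 0.534 (0.346 to 0.819), wos2 at 0.559 (0.320 to 0.970) and hsp104 at 0.579 (0.408 to 0.824). The others were gut2 at 0.580 and rsv2 at 0.514 among the high genes, and cnx1 (0.536), pcs2 (0.534), loz1 (0.657) and chk1 (0.639) below 2-fold. The paralogs again parted, as ssa2 had a ratio of 0.984 (0.6996 to 1.38), an interval wholly above that of ssa1. The summed profile of the 27 was 3.48 in the first bin, 4.51 in the third and 3.35 in the last, and that of 185 other high genes was 3.02, 3.72 and 3.96 at the same places. The genes were grouped after these profiles were known, so the contrast is a description.

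Most of the 12 stress genes called 3′-heavy came from the Sty1 cascade, DNA damage and nutrient lists. Of the genes tested in these lists 3 of 15, 3 of 19 and 4 of 16 were 3′-heavy. These shares were 20%, 15.8% and 25%, against 14.5% of all genes tested. The 12 included the kinase genes wis4 (1.77), mak1 (1.63), wis1 (1.61), tor2 (2.05), sck2 (1.63) and atg1 (1.56). The others were the TOR inhibitor gene tsc1 (1.73), the checkpoint and repair genes mre11, hus1 (2.52) and rad26 (1.72), and tms1 (2.44) and gst2 (1.82). At their ends wis4 overlaps rpl3001 (2.70-fold) for 97 bp and rad26 overlaps atd1 (2.78-fold) for 90 bp. The ends of atg1 and tms1 overlap thg1 (0.618-fold) and SPBC1773.04 (0.561-fold), and tsc1 overlaps tho2 for 1461 bp. In tor2, the kinase gene of the TOR growth pathway, the first 5 bins held 73 to 84 Pol II reads and the last 5 held 89 to 137, against 35 to 63 and 29 to 39 control reads. All 12 were below 2-fold in the body.

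High genes had few introns. Of 2541 genes without an intron 9.52% were high, of 1093 with 1 intron 6.59% and of 1334 with 2 or more 1.87%. Ribosomal protein genes held part of the middle class, and without them the shares were 8.05%, 3.49% and 1.28%. The median log2 folds without them were -0.39, -0.47 and -0.56. Median control levels without them were 86.2, 86.0 and 85.6 RPKM, close to each other.

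Base composition moved with the fold. Across genes, as a description, the rho of transcript GC content with log2 fold was 0.249. In 5 equal groups of GC content, low to high, 2.31%, 1.61%, 3.32%, 6.24% and 20.6% of genes were high. Median Pol II levels in the same order were 55.5, 56.6, 60.6, 64.4 and 81.1 RPKM and median control levels were 82.3, 84.6, 86.6, 87.1 and 89.4 RPKM. Both libraries were thus higher at high GC content, the Pol II library by more, and the part of GC content in the folds was not tested.

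Chromosome ends had little Pol II. Of 123 measured genes within 100 kb of a chromosome end 47 were low, or 38.2%, against 10.8% of the 4845 genes elsewhere. Their median level was 47.3 RPKM in the Pol II library and 82.3 RPKM in the control, against 61.4 RPKM and 86.2 RPKM elsewhere. With median-bin scaling 18.7% of the genes near the ends and 1.01% of the others were low. Still 9 of the 123 were high, or 7.32%, against 6.81% elsewhere. The 3 chromosomes were alike in the median log2 fold, at -0.43 on chromosome I, -0.44 on II and -0.51 on III.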

How the data were processed

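The authors deposited, per library, aligned reads without score or normalisation: chromosome, first and last base and strand of each read. Bowtie 0.12.7 is named in the submitters' processing notes without its role; build, mismatch limit and multi-hit policy: not given in the sources used here. Of the reads, 99.1% (Pol II) and 99.2% (control) span 45 bases, and 0 of them start at a repeated 45-base sequence of assembly ASM294v3, against 306 and 147 when moved by 1 base, so coordinates were read as 1-based on it. Per the labels' protocols fragments were 100 to 300 bp with adaptors.

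Everything else was computed with Python 3.11.15, numpy 2.4.6, scipy 1.17.1 and pandas 2.3.3. Reads were counted at their 5′ end moved 72 bp, from a strand cross-correlation maximum at 145 bp in both libraries, which is weak in the control (0.00328 against 0.0654 for Pol II). The deposited read positions gave counts per window. Fold intervals are exact conditional binomial at 95%, ratio intervals exact conditional odds ratios. Medians use log2 with 0.5 reads added. Of 145 genes left out, 69 had too few reads and 141 too few unique positions, some both. Genes were named by their calls, the ends of each list, the extremes of the 3′ to 5′ ratio without an overlap other than long non-coding RNAs, the longest transcripts and the highest of each length class; list members between the thresholds, the rpl39 and hsp90 promoters and the tor2 and hsp104 profiles were chosen after their values were seen. Promoter windows were read from the genome, as were transcript ends from its RefSeq annotation. Of the listed names, gpp1 and lhs1 had no match and ssp1 and ccp1 name other genes in the annotation. The members and lists were chosen with earlier results of these data known. The intervals and calls were checked on simulated reads. Alternatives were the scaling, repeats counted once, the coding span, unmoved reads, gene overlap, count and uniqueness minimums, pseudocount and thresholds.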

Additional observations from a re-analysis of the deposited data

Results flagged for a closer look

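Mitochondrial reads, which no comparison above uses, made up 7.73% of the Pol II library (7.69 to 7.77) and 6.84% of the control (6.78 to 6.90), both Wilson score intervals for counting error. The Pol II library was thus 1.13 times the control (1.12 to 1.14), although RNA polymerase II does not transcribe mitochondrial DNA, and the share entered no scaling here.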

How the results depend on the processing

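Moving the reads or not, a minimum of 50 reads, no minimum on unique positions and a pseudocount of 1 kept all 10 list medians, 5 length medians and the counts they touch within the spread around them (the interval of a median, or 1.5 times for a count). No paired analysis was possible because each group is 1 library. With median-bin scaling the high and low genes numbered 561 and 72, list medians (log2) were 1.19 for transcription factors, 2.03 for chaperones, -0.21 for DNA damage and 0.17 for nutrient genes, and length medians, short to long, were 0.14, -0.031, 0.059, 0.11 and 0.19. With repeats counted once 328 genes were low, the length medians were -0.25, -0.41, -0.34, -0.30 and -0.19, and the median log2 3′ to 5′ ratio was 0.20. Over the coding span 932 genes were low, the first 4 length medians were -0.43, -0.64, -0.52 and -0.46, 346 genes were 3′-heavy and the median log2 ratio was 0.14. The ratio of 3 named genes turned there, to 0.969 in pdi4, 0.863 in SPCC965.09 and 1.59 in mug114, so these rest on the untranslated ends. A 1.5-fold threshold gave 522 high and 1879 low genes. With 150 bp left out at each end the median log2 ratio was 0.18. Long non-coding RNAs overlap most genes, so leaving out any overlap kept 416 genes, 57 high and 65 low, with length medians of -0.24 (under 1000 bp), -0.33 (2000 bp up), 0.27 (3000 bp up, 11 genes) and 0.59 (4000 bp up, 5 genes). For ratios it kept 253 genes, 26 3′-heavy and 7 5′-heavy, at a median of 0.17. With no annotated gene within 500 bp, 13 genes kept a ratio, 1 3′-heavy and 0 5′-heavy, at 0.058, while the first and last bins were 0.875 and 1.15 and their quotient 1.31. That quotient was 1.38 with each gene weighted equally, and 1.37 with repeats counted once, where the first bin was 0.895. Chosen after seeing the data were the alternatives that set long non-coding RNAs or ribosomal protein genes aside. Without other overlaps the length medians were -0.43 (under 1000 bp), -0.57 (1000 bp up), -0.31 (3000 bp up) and -0.19 (4000 bp up), with 284 3′-heavy and 52 5′-heavy genes and a median log2 ratio of 0.21. With no other gene within 500 bp these were 29, 9 and 0.16, the bins 1.19 and 1.67 and their quotient 1.40. Without ribosomal protein genes the shortest class stood at -0.49. A list median was left out where under 5 genes remained. Where values moved, the cause was not tested.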
